A study of Mus musculus with 6 samples.

Results

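The 2 libraries numbered 4, out of 6 in all, had higher levels of targets of the stress factor ATF4 than the other 4 libraries. Their levels of sterol synthesis and DNA replication genes were lower. All levels are relative to each library's effective size and are not amounts per cell. The study sequenced RNA of 4T1 cells, a mouse mammary tumour line, in pools whose Myo1e genotype was labelled WT (wild type) or KO (knockout), with 3 libraries per genotype. Myo1e encodes a class I myosin motor. RNA was purified on RNeasy columns and made into stranded mRNA libraries, per the labels. The sources used here do not give treatment, time in culture, cell density or medium, nor how the knockout was made or the pools derived. The columns of the deposited table are numbered 1, 2 and 4 in each genotype, while sample titles count pools 1 to 3, and no title holds the number 4. Libraries carry their genotype and column number as a name, and KO 4 and WT 4 were set against KO 1, KO 2, WT 1 and WT 2.

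The pair was chosen by its measured values: on the first principal component, which held 83.8% of the variance between libraries, KO 4 and WT 4 both scored 51.9 or more and the other 4 between -29.8 and -22.1. Differences between number 4 and numbers 1 and 2 are therefore a description with no test, and a gene counted as different below says nothing beyond that choice. No label says what the number marks, so a batch, a day or a state of the culture cannot be told apart. Levels are log2 CPM, meaning log2 of read counts with a prior count of about 1, divided by the library's effective size, and a difference of 1 is a 2-fold change. The difference has genotype as a covariate and its SE is given with 6 libraries in the fit.

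As background, cells that run short of amino acids or misfold protein in the endoplasmic reticulum (ER) phosphorylate the initiation factor eIF2 alpha, which slows translation while the mRNA of the transcription factor ATF4 is translated better. ATF4 then turns on genes for making and importing amino acids, together with the inhibitory factors CHOP and TRIB3. Unfolded protein in the ER has 2 further sensors, ATF6 and IRE1, which raise ER chaperones through a promoter element of their own. Sterol shortage activates SREBP2, which turns on nearly every enzyme of cholesterol synthesis, and E2F factors turn on the genes of DNA replication when a cell commits to division.

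The genes of this response can be read beside the letters of their promoters. ATF4 binds with C/EBP partners at a composite element written here as TGATGNAA, searched on both strands in RefSeq windows of 250 bases before to 50 bases after the gene start (GRCm38.p6). Of the 28 ATF4 targets with a window, 9 held it (32.1%), as did 5 of 13 cytosolic tRNA synthetases (38.5%), against 2.71% of all 9163 measured genes with a window. The stretches below are shown because the differences in the next paragraphs can be read against them. They run 5′ to 3′ on the strand that reads the element, which is in capitals.

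Trib3, chr2:152344029-152344056, plus strand: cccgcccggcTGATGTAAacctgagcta
Slc7a11, chr3:50443662-50443689, minus strand: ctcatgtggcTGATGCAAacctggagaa
Nupr1, chr7:126625563-126625590, plus strand: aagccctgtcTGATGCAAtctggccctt
Vldlr, chr19:27216810-27216837, minus strand: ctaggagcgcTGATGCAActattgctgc
Chac1, chr2:119351039-119351066, minus strand: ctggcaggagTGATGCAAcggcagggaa
Pycr1, chr11:120643834-120643861, minus strand: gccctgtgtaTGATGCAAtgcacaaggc
Slc1a4, chr11:20332700-20332727, plus strand: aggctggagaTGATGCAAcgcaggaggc
Pck2, chr14:55540153-55540180, minus strand: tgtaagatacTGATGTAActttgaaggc
Asns, chr6:7693215-7693242, minus strand: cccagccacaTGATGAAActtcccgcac
Aars, chr8:111033841-111033868, minus strand: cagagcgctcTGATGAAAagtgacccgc
Yars, chr4:129189896-129189923, plus strand: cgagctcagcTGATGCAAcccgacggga
Iars, chr13:49682127-49682154, minus strand: cgtctggaggTGATGCAAtactgacagt
Tars, chr15:11399656-11399683, plus strand: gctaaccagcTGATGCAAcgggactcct
Gars, chr6:55037961-55037988, minus strand: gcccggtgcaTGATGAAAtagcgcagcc

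All 32 measured ATF4 targets were higher in number 4, with a median difference of 2.17 against 0.01 over all 11452 genes. In 27 of them the difference was at least 1 with KO 4 and WT 4 both above the range of the other 4 libraries, a pattern that 7.4% of all genes showed upward and 4.87% downward. By limma with Benjamini-Hochberg adjustment, 32.4% of all genes were past the threshold of 0.05 upward and 33.4% downward, shares from which nothing is read because the contrast chose the libraries. In bulk RNA, more cells of one state and more RNA per cell cannot be told apart. The list medians rank as drawn in the plot of gene lists, where the ATF4 targets are at the top and sterol synthesis at the bottom.

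**Figure D1:**
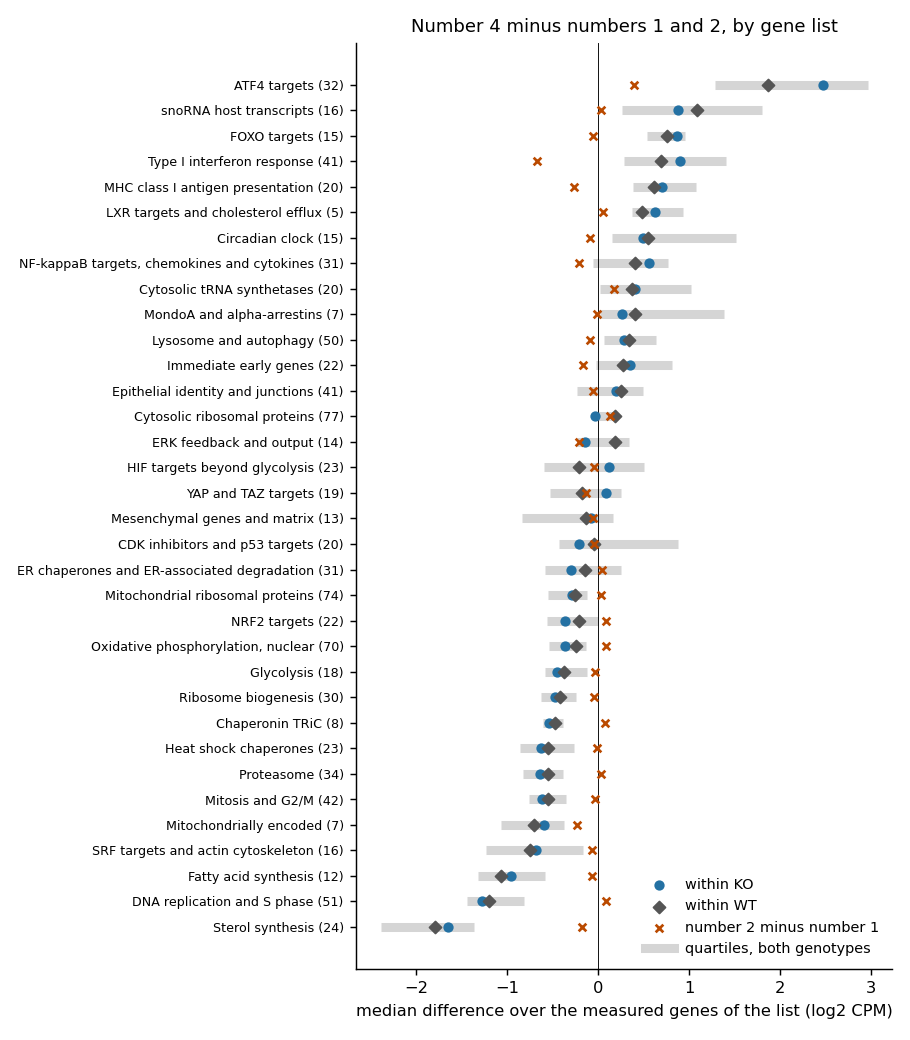
Median difference in log2 CPM over the measured genes of each list with at least 5 of them (number in brackets, cell type markers left out) for number 4 minus numbers 1 and 2 within KO (blue circles) and within WT (grey diamonds), with the quartiles over both genotypes as grey bars and number 2 minus number 1 as orange crosses. The ATF4 targets have medians of 2.47 within KO and 1.87 within WT, sterol synthesis -1.65 and -1.79, and their crosses lie at 0.39 and -0.18.

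The transcription factors of this group were higher without exception. Ddit3, which encodes CHOP, had log2 CPM of 2.54, 2.41, 2.51 and 2.83 in KO 1, KO 2, WT 1 and WT 2, and 6.45 and 6.87 in KO 4 and WT 4, a difference of 4.09 (SE 0.12). The 2 groups were far apart and each was tight. Atf4 itself, whose main control is at translation, differed by 1.12 (SE 0.15). Nupr1, a stress-induced chromatin protein, was at 4.11, 4.22, 4.39 and 5.13 against 7.94 and 8.06. Atf3 and Atf5, factors of the same family that were not in the list, differed by 3.35 and 3.31, with SEs of 0.07 and 0.06.

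Among the 6 feedback and growth inhibitors every member showed the pattern. Trib3, a pseudokinase that damps ATF4, was at 3.81, 4.05, 3.90 and 5.66 in KO 1, KO 2, WT 1 and WT 2 and at 8.79 and 8.92 in KO 4 and WT 4, a 22.6-fold difference. WT 2 was well above the other 3 low libraries and still over 3 log2 units under number 4. Ppp1r15a, which encodes the GADD34 subunit that reverses eIF2 alpha phosphorylation, was at 3.55 to 3.97 in the 4 libraries and at 7.20 and 7.55 in number 4. The smallest difference in this group was that of Eif4ebp1, a brake on cap-dependent translation, at 1.29 (SE 0.19). Sesn2 and Ddit4, both inhibitors of the growth kinase mTORC1, belong to the same group, and Sesn2 differed by 2.63 (SE 0.26).

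Amino acid supply was higher on the import side and more unevenly on the synthesis side. Of 7 transporters, 6 showed the pattern, led by Slc7a11, the cystine importer, at 2.96, 2.92, 2.44 and 4.52 against 7.38 and 7.08. Slc6a9, a glycine transporter, differed by 3.67 (SE 0.29) and Slc7a5, the large neutral amino acid carrier, by 1.36 (SE 0.15). Of 8 synthesis enzymes, 5 showed it, with Gpt2 highest at 2.89. Asns, asparagine synthetase, was at 7.27, 7.48, 6.98 and 8.11 against 9.16 and 9.09.

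The serine pathway was the exception among the synthesis enzymes. Psat1, its second enzyme, was at 8.77, 8.92, 8.62 and 9.46 in the 4 libraries and at 9.30 and 9.36 in number 4, so WT 2 was above both. Phgdh, the first enzyme, differed by 0.32 (SE 0.07). Of the 4 mitochondrial enzymes, Aldh1l2, a folate enzyme, was at 0.18, 0.34, 1.63 and 1.56 against 5.23 and 5.38, while Shmt2 differed by 0.12, the smallest value of the list.

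WT 2 stood partly towards number 4 in this list. Measured from the mean of the 4 libraries numbered 1 and 2, the median ATF4 target was at -0.19 in KO 1, -0.13 in KO 2, -0.19 in WT 1 and 0.58 in WT 2, against 2.22 in KO 4 and 2.11 in WT 4. The plot of 4 lists by library shows this step. Without WT 2 the median difference of the list was 2.43. The sterol genes, which were lower in number 4, also lay slightly towards it in WT 2. Their median was -0.21 in WT 2 and 0.02 to 0.10 in KO 1, KO 2 and WT 1, against -1.62 in KO 4 and -1.82 in WT 4. Cytosolic tRNA synthetases also leaned this way in WT 2, with a median of 0.18. Some other lists did not: the WT 2 median was 0.02 for DNA replication, -0.24 for interferon genes and -0.98 for the 2 metallothioneins. In number 4 the first of these was lower and the last 2 were higher.

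**Figure D2:**
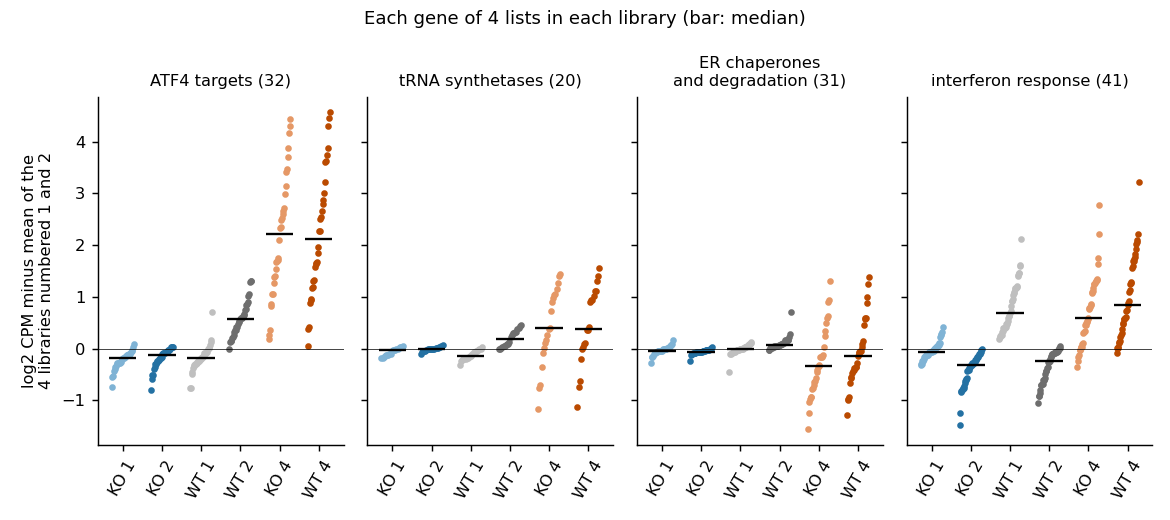
Log2 CPM of each gene minus its mean over the 4 libraries numbered 1 and 2 (vertical axis) in each of the 6 libraries (horizontal axis), for 4 gene lists, genes sorted within each library and the median as a black bar. The bars of the ATF4 targets lie at 2.22 and 2.11 in KO 4 and WT 4 and at 0.58 in WT 2, those of the ER genes at -0.33 and -0.14 in KO 4 and WT 4, and the interferon genes are also high in WT 1, at 0.69.

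Cytosolic tRNA synthetases, which load amino acids onto tRNAs and many of which are ATF4 targets, split. Of 20 measured, 15 were higher and 5 lower, 5 showed the 2-fold pattern upward and 1 downward, and the median was 0.39. Sars, the serine enzyme, was at 8.04, 8.23, 8.03 and 8.52 against 9.62 and 9.77, and Aars and Lars, the alanine and leucine enzymes, differed by 1.43 and 1.29. Farsa, a subunit of the phenylalanine enzyme, was at 7.37 to 7.41 in the 4 libraries and at 6.21 and 6.27 in number 4. The 5 synthetases printed above with the ATF4 element had a median difference of 0.98, and the 8 with a window that lacked it had 0.01. The 9 ATF4 targets with the element had a median of 2.54 and the 19 without it 1.68. All 248 measured genes with the element had a median of only 0.17.

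The ER chaperones did not follow the ATF4 targets. Of 17 measured chaperones and folding enzymes 16 were lower in number 4, with a median of -0.51, and the exception was Hspa5, which encodes the chaperone BiP. Hspa5 was at 10.81, 10.81, 10.84 and 11.06 in KO 1, KO 2, WT 1 and WT 2 and at 11.37 and 11.76 in KO 4 and WT 4, a difference of 0.68 (SE 0.09). Calr, calreticulin, was at 9.89 to 9.97 in the 4 libraries and at 8.36 and 8.63 in number 4. Hsp90b1, which encodes GRP94, differed by -0.51 (SE 0.08) and Creld2 by -1.09 (SE 0.09). Herpud1 and Dnajb9, from the arm that clears misfolded ER protein, were higher by 1.35 and 1.08. The 12 genes of degradation and translocation, to which both belong, had a median of 0.03. The other 2 genes of the ER list, the sensor and transcription factor genes Xbp1 and Atf6, were higher by 0.42 and 0.97. Neither showed the 2-fold pattern.

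Some of these genes carry the element read by the ATF6 arm. Written as CCAAT and CCACG 9 bases apart, it lay in 9 of 26 ER genes with a window (34.6%) and in 0.175% of all windows. These 9 stretches are shown because they share the element while their differences have both signs, with 8 of the 9 genes lower in number 4. The element with its spacer is in capitals.

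Hspa5, chr2:34772020-34772048, plus strand: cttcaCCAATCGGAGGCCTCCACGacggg
Syvn1, chr19:6046527-6046555, plus strand: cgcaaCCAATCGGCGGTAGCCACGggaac
Ero1lb, chr13:12565677-12565705, minus strand: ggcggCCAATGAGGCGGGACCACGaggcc
Canx, chr11:50325795-50325823, minus strand: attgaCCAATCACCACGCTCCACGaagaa
Hsp90b1, chr10:86705633-86705661, minus strand: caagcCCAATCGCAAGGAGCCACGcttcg
Dnajc3, chr14:118937822-118937850, plus strand: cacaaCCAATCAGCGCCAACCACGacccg
Pdia6, chr12:17266486-17266514, plus strand: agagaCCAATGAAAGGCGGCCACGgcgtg
Creld2, chr15:88819515-88819543, minus strand: gtggaCCAATTGAGGCTCGCCACGagaag
Calr, chr8:84847070-84847098, plus strand: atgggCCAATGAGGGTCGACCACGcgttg

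The differences of these genes, in the order printed, ran from 0.68 for Hspa5 through -0.11 for Syvn1, a ubiquitin ligase, to -1.42 for Calr. The ER genes with the element had a median difference of -0.51 and the 17 without it -0.22. A match of letters describes the window and does not show that a factor binds there.

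Chaperones of the cytosol were lower as well. Of 23 heat shock genes, 20 were lower, with a median of -0.58. Hspa8, the constitutive HSP70, was at 11.63, 11.64, 11.52 and 11.33 against 9.91 and 10.14. The chaperonin TRiC, which folds actin and tubulin, had a median of -0.51 over 8 subunits. The proteasome was lower in 33 of 34 subunits, with a median of -0.59. Psmd13, a lid subunit, differed most, from 6.85 to 6.92 in the 4 libraries to 5.29 and 5.62 in number 4.

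Sterol synthesis was lower in all 24 measured genes, 20 of them by at least 1 without overlap, and the median was -1.72. Idi1, which isomerizes the 5-carbon isoprenoid units, was at 5.37, 5.16, 5.28 and 5.0 in KO 1, KO 2, WT 1 and WT 2 and at 1.64 and 1.58 in KO 4 and WT 4, a 12-fold lower level. Every step was lower: the 8 mevalonate and isoprenoid genes had a median of -1.89, the 12 genes from squalene to cholesterol -1.49, and the 4 genes of uptake and regulation -2.20. Acat2, which makes the acetoacetyl-CoA that enters the pathway, was at 6.16 to 6.41 in the 4 libraries and at 3.53 and 3.47 in number 4. Cyp51, which removes a methyl group from lanosterol, was at 7.62, 7.50, 7.67 and 7.16 against 5.02 and 5.0. Insig1, which retains SREBP in the ER when sterol is plentiful, differed by -2.36 (SE 0.08). The plot of pathway genes shows the KO and WT differences lying close together at each step.

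**Figure D3:**
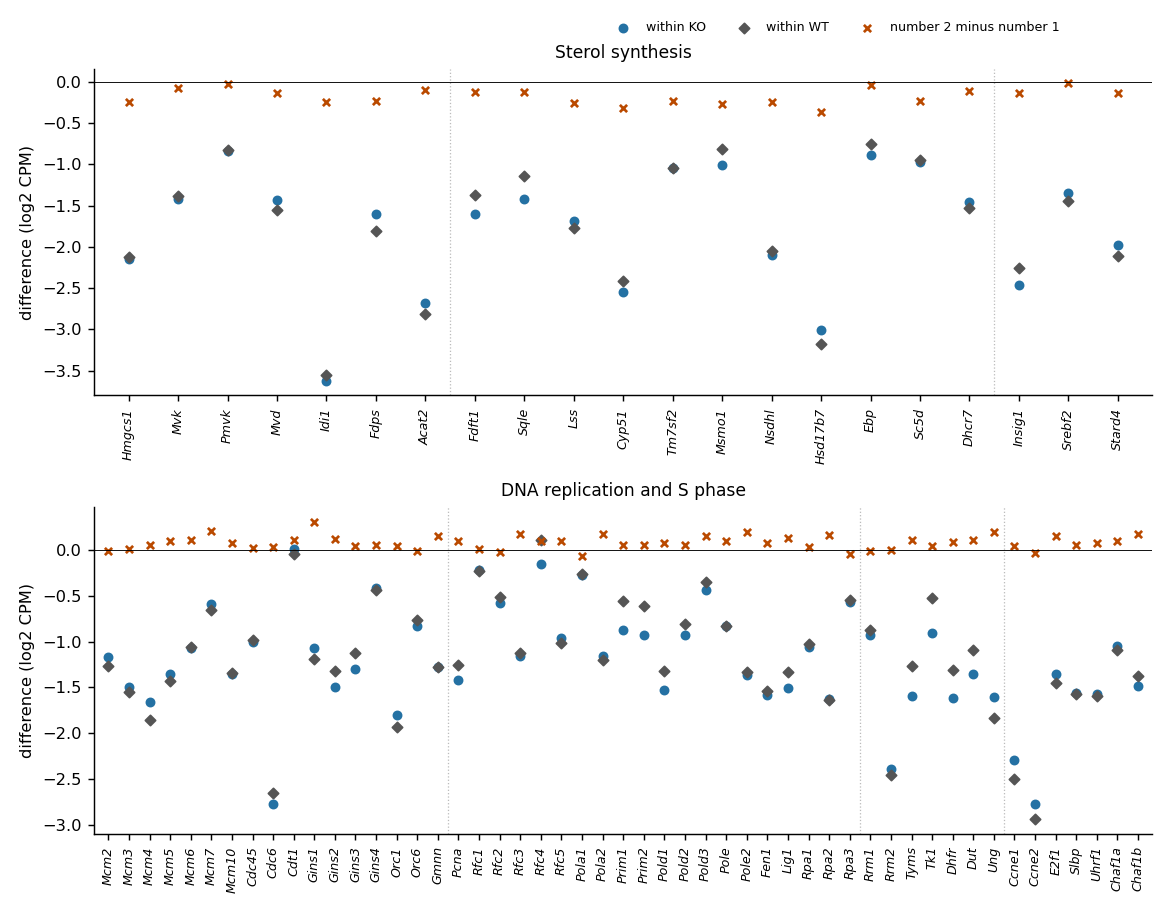
Difference in log2 CPM of number 4 minus numbers 1 and 2 within KO (blue circles) and within WT (grey diamonds), and of number 2 minus number 1 (orange crosses), for measured genes of sterol synthesis (top, 21 of 24 drawn) and of DNA replication (bottom), ordered by role with dotted lines between roles. Idi1 lies lowest of the sterol genes, at -3.62 within KO and -3.56 within WT, and Ccne2 lowest of the replication genes, at -2.77 and -2.94.

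A sterol response element bound by SREBP, TCACCCCAC, lay in 1 of the 17 sterol genes with a window (5.88%) and in 0.688% of all windows. That gene was Hmgcs1, which makes HMG-CoA and differed by -2.13, and its stretch is shown with the element in capitals.

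Hmgcs1, chr13:119690204-119690232, plus strand: cgtcaccgtcTCACCCCACttcccaggtc

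Fatty acid synthesis was lower in all 12 measured genes, with a median of -1.04. Fads2, a desaturase, was at 8.21 to 8.33 in the 4 libraries and at 6.01 and 5.91 in number 4. Fasn, fatty acid synthase, differed by -1.21 (SE 0.06) and Srebf1, the gene of SREBP1, by -1.32 (SE 0.07). Targets of the oxysterol receptor LXR numbered only 5, of which 4 were higher and 1 lower, with a median of 0.55. The lower gene was Lpcat3, with a difference of -0.90 (SE 0.07). Abcg1, a cholesterol exporter, differed by 2.26 (SE 0.50) and entered the table through KO 4 and WT 4 alone, so it had to differ, and Mylip, a ubiquitin ligase gene, differed by 0.94 (SE 0.14).

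4 genes with few reads in numbers 1 and 2 were singled out after their values were seen. Cdsn, Soat2 and Fgf21 were below 0 in all 4 of those libraries, so they entered the table through KO 4 and WT 4 alone and had to differ, and no size is given for them because the prior count sets it in part. Cdsn, corneodesmosin of the skin barrier, was at -1.28, -1.55, -1.46 and -3.23 in KO 1, KO 2, WT 1 and WT 2 and at 5.21 and 5.44 in KO 4 and WT 4. Soat2, which esterifies cholesterol, was at -2.68, -3.18, -4.25 and -4.25 against 3.28 and 3.40, where -4.25 is the value of 0 reads. Angptl6, a secreted angiopoietin-like protein, was at -0.37, 0.20, -0.36 and -1.41 against 5.10 and 5.33. Fgf21, a hormone gene known as an ATF4 target, was at -2.64 or below in the 4 libraries and at 1.21 and 1.47 in number 4.

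All 51 measured genes of DNA replication and S phase were lower in number 4, 33 of them by at least 1 without overlap, and the median was -1.22. Cdc6, which loads the MCM helicase onto origins, was at 6.22, 6.26, 6.31 and 6.33 in KO 1, KO 2, WT 1 and WT 2 and at 3.46 and 3.67 in KO 4 and WT 4. The 4 libraries agreed within 0.11 while number 4 was 6.56-fold lower. The cyclin E genes Ccne1 and Ccne2, which drive entry into S phase, differed by -2.40 and -2.85, and E2f1 by -1.40 (SE 0.08). Rrm2, the regulated subunit of ribonucleotide reductase, was at 8.42 to 8.48 against 6.07 and 5.98.

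By role, helicase loading and firing had a median of -1.22 over 17 genes, the clamp and polymerases -0.93 over 20, nucleotide supply -1.43 over 7, and the last 7 genes, among them the cyclins E, -1.57. Cdt1, a loading factor degraded once S phase begins, was the smallest difference, at 7.08, 7.29, 7.16 and 7.18 against 7.20 and 7.12, so its groups overlapped. The E2F element, written as TTTNNCGC, lay in 16 of 41 replication genes with a window (39.0%) and in 10.4% of all windows. The 16 replication genes with it had a median difference of -1.37 and the 25 without it -1.18. All 953 measured genes with the element had a median of -0.10. Cdt1 was among the 16. The 4 of these 16 genes with the largest differences are shown, with the element in capitals.

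Cdc6, chr11:98908003-98908030, minus strand: ccccaggcgaTTTCCCGCtctccaccgg
Orc1, chr4:108579417-108579444, minus strand: ggagaaaactTTTCGCGCcactaaccga
Uhrf1, chr17:56303271-56303298, plus strand: ccccacttgcTTTCTCGCttcccgccac
Mcm3, chr1:20820263-20820284, minus strand: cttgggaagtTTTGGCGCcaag

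Mitotic genes were lower to a smaller extent, with a median of -0.59 over 42 genes and only 4 past a difference of 1. The mitotic median was -0.48 after quantile normalization and -0.51 with the length and GC correction. Birc5, survivin, was at 7.50, 7.51, 7.50 and 7.52 against 6.11 and 6.41, and Ccna2, cyclin A2, differed by -1.07 (SE 0.05). Replication-dependent histones were not among the measured genes. CDK inhibitors and p53 targets went both ways, 9 higher and 11 lower of 20. Gadd45a, a stress and growth arrest gene, was at 3.48, 3.24, 4.09 and 4.14 against 7.60 and 7.73, whereas Cdkn1a, the p21 inhibitor, was at 3.97 to 4.55 against 3.67 and 4.08 and its groups overlapped. Bbc3, the cell death gene PUMA, differed by 2.93 (SE 0.15), Trp53inp1 by 3.34 (SE 0.37), and Ccng1, a p53 target, by -0.48 (SE 0.06).

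Growth genes went both ways. Ribosome biogenesis was lower in 28 of 30 genes, with a median of -0.46. That median was -0.33 after quantile normalization and -0.40 with the length and GC correction. Rrp9 and Bop1, both needed for ribosomal RNA processing, differed by -1.09 and -1.01. Myc, the factor that drives ribosome biogenesis, was higher all the same, at 8.58, 8.57, 8.54 and 8.44 against 9.62 and 9.60. Cytosolic ribosomal proteins, 54 of 77 higher, had a median of 0.06, which was -0.03 within KO (also without WT 4), 0.18 within WT (also without KO 4) and 0.26 after quantile normalization. None of them reached a difference of 1 without overlap.

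Transcripts that host small nucleolar RNAs in their introns stood out among growth genes. Of 16 measured, 12 were higher and 8 showed the 2-fold pattern, with a median of 0.98, and 2 showed it downward. Snhg12 was at 4.36 to 4.58 in the 4 libraries and at 7.12 and 7.34 in number 4. Zfas1 was at 5.60, 5.54, 5.47 and 5.54 against 8.0 and 8.23, and Gas5 differed by 1.78 (SE 0.08). Spliced RNAs of this kind are degraded by nonsense-mediated decay while they are translated, which is background and was not tested here.

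Energy metabolism was lower to a modest extent. Of 70 nuclear oxidative phosphorylation genes, 59 were lower, with a median of -0.32, of 74 mitochondrial ribosomal proteins 63 were, with a median of -0.28, and so were all 7 measured mitochondrially encoded genes, with a median of -0.65. The share of mitochondrially encoded reads was 0.343% in KO 4 and 0.309% in WT 4, against 0.379% to 0.493% in the other 4. Mrpl18 differed most among mitochondrial ribosomal proteins, by -1.57 (SE 0.06). Glycolysis was lower in 15 of 18 genes, and Ldha, lactate dehydrogenase, was at 10.56, 10.48, 10.77 and 10.74 against 9.31 and 9.55.

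FOXO targets, which insulin signalling holds down, were higher in 14 of 15, with a median of 0.77, and genes of the glucose-responsive factor MondoA and the alpha-arrestins in 5 of 7, with a median of 0.34. Txnip, an arrestin that lowers glucose uptake and is induced by the factor MondoA, was at 4.73, 3.86, 5.46 and 5.0 against 7.14 and 8.14, a 7.34-fold difference, and its relative Arrdc4 differed by 2.42 (SE 0.16). Mlx, the DNA-binding partner of MondoA, went the other way, by -0.67 (SE 0.07). Klhl24, a FOXO target, was at 2.77, 2.82, 3.54 and 3.32 against 5.49 and 5.48, and Pik3ip1, a PI3 kinase inhibitor, differed by 2.13 (SE 0.22). Insr, the insulin receptor, differed by 0.98 (SE 0.06).

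Hypoxia genes beyond glycolysis had no common direction, with 11 of 23 higher and a median of -0.08, which was 0.11 within KO and -0.21 within WT, and above 0 without WT 1 or WT 4. Vegfa, an angiogenic factor that is also an ATF4 target, differed by 1.37 (SE 0.09) and Ndrg1 by 1.87 (SE 0.09), while Ankrd37 and Ak4 differed by -1.77 and -1.40. NRF2 targets were likewise split, with 16 of 22 lower. Slc7a11, shared with the ATF4 list, was their highest, and Pgd and Prdx1, enzymes of NADPH supply and peroxide removal, differed by -1.48 and -1.25. Both measured metallothioneins were higher, and Mt2 was at 4.08, 3.45, 3.74 and 2.09 against 6.77 and 7.04. Tfrc, the transferrin receptor, singled out after its values were seen, was at 9.59, 9.26, 9.53 and 9.06 against 6.94 and 6.95.

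Lysosome and autophagy genes were higher in 41 of 50, with a median of 0.33. Sqstm1, the autophagy receptor p62, was at 8.30, 8.45, 8.42 and 8.19 against 10.55 and 10.72, and Scarb2, which carries an enzyme to lysosomes, differed by 1.49 (SE 0.07). The CLEAR element TCACGTGA lay in 7 of 39 of these genes with a window (17.9%) and in 2.36% of all windows. The 7 genes with it had a median difference of 0.24 and the 32 without it 0.35.

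Interferon and antigen presentation genes were higher in number 4, but they also varied among the other 4 libraries. Of 41 interferon response genes, 37 were higher, with a median of 0.77, and 12 showed the 2-fold pattern. Ifi44 was at 0.77, -0.67, 2.93 and 0.24 in KO 1, KO 2, WT 1 and WT 2 and at 3.59 and 4.03 in KO 4 and WT 4, so WT 1 lay nearer to number 4 than to KO 2. Isg15, an interferon-induced ubiquitin-like protein, was at 3.78, 3.35, 4.59 and 2.98 against 3.70 and 4.17, and its groups overlapped. The element GAAA, 2 bases, GAAA lay in 16 of 33 interferon genes with a window (48.5%) and in 3.63% of all windows, and members with and without it had medians of 0.77 and 0.77.

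MHC class I presentation was higher in 19 of 20 genes, with a median of 0.69. Tap1, a subunit of the peptide transporter, was at 2.68, 2.82, 3.64 and 3.07 against 4.54 and 4.83. Cd74, the invariant chain of MHC class II, was at 3.60, 2.47, 4.78 and 3.35 against 5.79 and 6.05. Near-identical class I genes can share reads, so single members of that family are uncertain. Among 31 NF-kappaB targets and chemokines 22 were higher, with a median of 0.53, led by Ccl20 at 0.12, -0.54, 0.64 and -0.41 against 2.89 and 2.90.

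Cytoskeletal genes driven by the factor SRF, whose MRTF cofactors bind free actin, were lower in 13 of 16, with a median of -0.71. Actb, beta actin and a common reference gene, was at 12.26, 12.34, 12.36 and 12.28 in KO 1, KO 2, WT 1 and WT 2 and at 10.69 and 10.83 in KO 4 and WT 4, 2.93-fold lower. Actg1 differed by -1.91 (SE 0.08). The YAP targets Ccn1 and Ccn2, matricellular proteins, were at 8.87, 8.58, 9.24 and 8.03 against 6.56 and 6.53, and at 8.30, 7.93, 8.98 and 7.76 against 6.92 and 6.58. The 19 YAP and TAZ targets as a list went both ways, with a median of -0.10 that was 0.09 within KO and -0.18 within WT. Other signalling lists were small or mixed. Immediate early genes had a median of 0.32 over 22 and ERK feedback genes 0.02 over 14 (-0.15 within KO and 0.18 within WT). Notch and Wnt targets had -0.43 and -0.08 over 4 each. Nuclear-retained long noncoding RNAs, listed under RNA quality and not signalling, had a median of 0.16 over 4, with 2 higher and 2 lower.

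The label of a mammary epithelial tumour line fitted both sets of libraries. Epcam was at 7.66 to 7.90 in the 4 and at 8.09 and 8.40 in number 4, and Cdh1, E-cadherin, at 9.15 to 9.36 against 9.64 and 9.61. Krt8, a luminal keratin, differed by -1.27 (SE 0.08) and Krt14, a basal one, by -1.44 (SE 0.19). Tjp3, a tight junction protein, differed by 2.28 (SE 0.24). Vim, vimentin, differed by -0.87 (SE 0.08), and the 41 epithelial and 13 mesenchymal genes had medians of 0.25 and -0.12, the latter 0.03 after quantile normalization.

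Clock genes showed opposite signs within the loop. Arntl, which encodes the activator BMAL1, was at 3.41, 3.57, 3.37 and 3.88 against 5.97 and 5.99, and Nr1d1, which encodes the repressor of Arntl REV-ERB alpha, at 4.96, 4.74, 4.87 and 4.42 against 3.55 and 3.66. Dbp, which was at only -0.21 to 0.73 in the 4 libraries, differed by 2.02, and Ciart by 2.84. Of the 9 repressors measured, 6 were higher and 3 lower, with Nr1d1, Bhlhe40 and Per3 the lower ones. Of the 15 clock genes, 11 were higher, with a median of 0.54. The sources used here give no time of harvest.

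The remaining genes with the largest differences were in no list. Acot2, a mitochondrial acyl-CoA thioesterase, was at 1.34 to 1.82 against 6.07 and 6.09, and Trim46, an E3 ligase family member, at 0.53 to 1.40 against 5.22 and 5.20. Fam129a, a stress-induced gene, differed by 3.43 (SE 0.22) and Slc24a3, a sodium and calcium exchanger, by 3.44 (SE 0.17). On the lower side, Rgs16, which shortens G protein signals, was at 8.05, 7.48, 7.67 and 6.45 against 3.82 and 3.94. Has2, a hyaluronan synthase, was at 7.10 to 7.49 against 4.45 and 4.32, and Il24, a cytokine, Slc39a10, a zinc importer, and S100a7a differed by -2.87, -2.85 and -2.70. The plot of 19 genes by library shows the values behind the named contrasts.

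**Figure D4:**
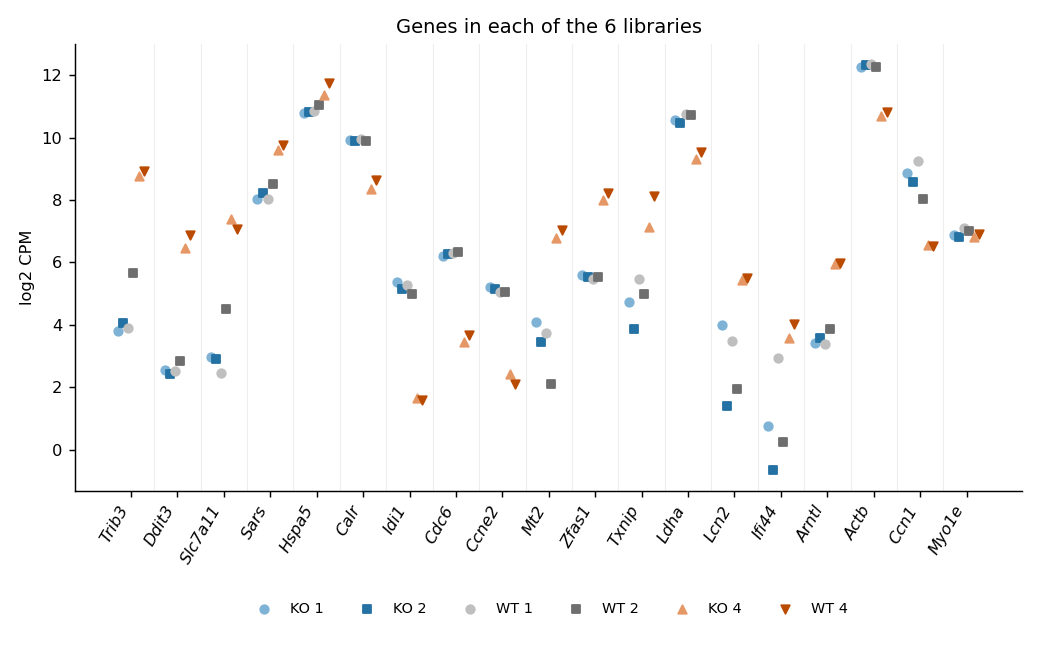
Log2 CPM (vertical axis) of 19 genes in each of the 6 libraries, with KO 4 and WT 4 as orange triangles and the other 4 as blue and grey symbols. For Cdc6 and Zfas1 the 4 libraries nearly coincide and number 4 stands apart, for Trib3 WT 2 is intermediate at 5.66, and for Myo1e all 6 lie between 6.81 and 7.09.

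Myo1e, the targeted gene, was at 6.87, 6.81 and 6.81 in KO 1, KO 2 and KO 4 and at 7.09, 7.02 and 6.91 in WT 1, WT 2 and WT 4. Each KO library was under each WT one, but the gap is small beside the levels, so the transcript was not lost, and reads over an edited site were not analysed here. The difference of number 4 was -0.09 (SE 0.06), and 0.02 after quantile normalization.

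Whether the shift differed between genotypes is a contrast that the choice of libraries did not use, and it was tested. In limma's test of the interaction, 0 of 11452 genes passed an adjusted p of 0.05 (0.0%), 443 had an unadjusted p under 0.05 where 573 would come from uniform p-values, and limma-voom on recovered reads also gave 0, with 475. The half-width of the 95% interval of a gene's difference between shifts had a median of 0.38 before any adjustment, and the adjusted test missed differences well above that. For Idi1 the KO shift minus the WT shift was -0.06 (95% interval -0.62 to 0.49), for Cdc6 -0.12 (-0.42 to 0.18), and for Trib3 0.72 (-1.12 to 2.55), a gene on which WT 1 and WT 2 disagree. All 1405 genes past the 2-fold pattern had the same sign within KO and within WT, which the pattern itself fixes.

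The 5 genes with the smallest interaction p failed the adjustment by limma. Mmp3, a matrix metalloproteinase, was at 6.21, 6.03, 5.54 and 5.61 in KO 1, KO 2, WT 1 and WT 2 and at 4.04 and 4.67 in KO 4 and WT 4, with a difference between shifts of -1.17 (adjusted p 0.855). Snx22, Nptx1, Mical2 and Sertad4 had -1.49, -1.16, 0.79 and 0.78 (adjusted p 0.998 each), and the shift of Snx22 was -1.20 within KO and 0.29 within WT. With the 3-level library number as a replicate block the interaction passed in 14 genes upward and 5 downward. Without WT 2 it passed in 165 and 65, and without WT 1 in 58 and 60, each with a lone WT library numbered 1 or 2 that is assumed to vary like the others.

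**Figure D5:**
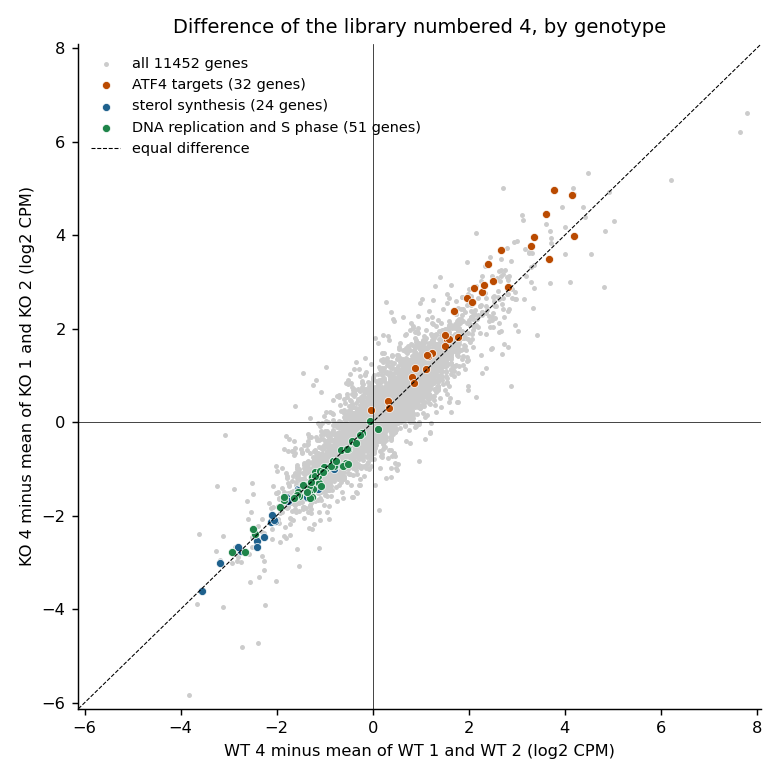
Each of 11452 genes by the difference of WT 4 from the mean of WT 1 and WT 2 (horizontal axis) and of KO 4 from the mean of KO 1 and KO 2 (vertical axis), in log2 CPM, with the dashed line marking equal differences. ATF4 targets (orange) lie at the upper right and mostly above the line, with medians of 2.47 within KO and 1.87 within WT. Measured from the mean of the 4 libraries numbered 1 and 2, their medians were 2.22 in KO 4, 2.11 in WT 4 and 0.58 in WT 2. In the adjusted interaction test 0 of them passed. Sterol (blue) and replication genes (green) lie along the line at the lower left.

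The second contrast that the choice did not use was number 2 minus number 1, with genotype in the model. In limma's test 3 of 11452 genes passed (0.0262%), all lower in number 2. An unadjusted p under 0.05 was seen in 1060, more than the count given above for uniform p-values. C3, complement component 3, was at 5.63 and 6.10 in KO 1 and WT 1 and at 4.07 and 4.51 in KO 2 and WT 2, and fell by 1.58 (SE 0.10, adjusted p 0.000489 by limma). Lcn2, an iron-binding acute phase protein, fell by 2.07 (SE 0.21, adjusted p 0.0142 by limma), from 4.00 and 3.48 to 1.41 and 1.93. Gbp4, an interferon-induced GTPase, fell by 1.87 (SE 0.21, adjusted p 0.0240 by limma), from 1.81 and 2.77 to 0.20 and 0.64. In number 4 these genes were higher still, C3 at 6.95 and 7.01, Lcn2 at 5.44 and 5.50 and Gbp4 at 3.37 and 3.76.

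Without the mean-variance trend 0 genes passed, and without KO 4, WT 4, KO 2, KO 1 or WT 2 the lower calls numbered 145, 146, 141, 46 and 19. The interferon list had a median of -0.68 for number 2 minus number 1, and the MHC class I list -0.27, whereas sterol synthesis and DNA replication had -0.18 and 0.08. Over all genes the median absolute difference was 0.377 for number 4 minus numbers 1 and 2, and 0.0823 for number 2 minus number 1. A difference of at least 1 either way was seen in 1419 and 71 genes. Nothing in the labels says that same-numbered libraries share a culture or day, so p-values measure only the spread between these samples.

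Properties of the libraries were set beside these differences, and their part in them was not tested. Recovered reads numbered 17772003 to 19988206 per library, and the linear CPM values summed to 939154 and 961041 in KO 4 and WT 4 and to 1019867 to 1030463 in the others. Over 11352 genes with a transcript length, the rank correlation of the difference was 0.078 with length and 0.020 with GC content, and 20 chromosomes had median differences between -0.10 and 0.10. Of the fibroblast, leukocyte and endothelial markers, 5 of 12, 1 of 17 and 2 of 10 were measured. Their summed CPM was 261 to 269, 4.56 to 5.39 and 140 to 152 in number 4, each within the range of the other 4 libraries (244 to 302, 4.03 to 7.94 and 138 to 162). Single markers differed: 4 of 5 fibroblast markers were higher, among them the collagen genes Col6a1 by 1.05 (SE 0.13) and Col6a2 by 1.07, the latter measured through number 4 alone, and their median was 1.12 within KO and 0.14 within WT. Of the endothelial pair, Flt1 differed by -0.73 and Eng by 0.33.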

How the data were processed

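RNA was measured in 6 libraries, 3 per genotype. The submitters' processing notes list edgeR, Subread 1.6.4 with featureCounts, STAR 2.7.3a, Trimmomatic 0.39 and the build GRCm38. The sources used here give neither the strand setting nor the annotation or normalization, so reads of overlapping or antisense genes can be misassigned. The authors deposited log2 CPM for 11452 genes, each at 0 or above in at least 2 libraries. Of these genes, 134 reached 0 in both number 4 libraries alone and 112 were below 0 in both. Each library's lowest linear value, that of 0 reads, stood at 0.909 to 1.095 reads. Counted from it, all linear values were whole multiples of 1 read within 0.01 (100%). An added limma-voom fit on the reads so recovered put 3776 genes higher and 3802 lower in number 4.

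Differences were fitted with limma 3.58.1 (R 4.3.3) on the deposited log2 values with a mean-variance trend, over all genes, two-sided with Benjamini-Hochberg adjustment at 0.05. Fold changes include the authors' prior, which understates weakly expressed genes. Columns 1 and 2 were matched to pools by number, and columns 4 to their genotype only. Deviations from the genotype means correlated over genes between same-numbered libraries, at 0.738, 0.777 and 0.922 for numbers 1, 2 and 4, while KO 1 with WT 2 and KO 2 with WT 1 gave 0.689 and 0.626. All of these hold the number 4 shift. Any pairing is a hint from the data, not the labels.

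The libraries, the 43 gene lists (42 with a measured gene) and the roles within them were chosen with earlier results of these data known. Named genes were Myo1e, the 15 largest differences each way with a mean log2 CPM of at least 2, up to 4 members of each list, and the 5 smallest p-values of each tested contrast. Other genes named were chosen from the lists after their values were seen, or are said to lie outside them. The fits were tested on simulated data. Alternatives covered filters, pseudocount, scaling, variance model, replicate block, length and GC content, single genotypes, and leaving out each library. Promoter windows came from RefSeq (GRCm38.p6), and 1924 genes had more than 1 window, any of which could hold a motif. Single values of some genes of the sterol list are not reported here, and the list's counts and medians include them.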

Additional observations from a re-analysis of the deposited data

How the results depend on the processing

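The number 4 difference put 3708 genes higher and 3822 lower, and over the alternatives run these counts ranged from 2687 to 3846 and from 2984 to 3993. Of 175 named genes, 5 changed sign under an alternative or within a genotype (Cd68, Malat1, Myo1e, Postn and Znrf3), as did 6 of 42 list medians (cytosolic ribosomal proteins, ERK, HIF, YAP, mesenchymal and leukocyte), all with a main difference of 0.37 or less in size. With the replicate block the counts were 3846 and 3902, and the interaction passed in 14 genes higher and 5 lower, against 0 and 0 without it. Leaving out 1 library gave 0 to 165 higher and 0 to 65 lower for the interaction, which has no value without KO 4 or WT 4. For number 2 minus number 1 it gave 0 to 48 higher and 2 to 146 lower, against 0 and 3, and no trend gave 0 lower. The snoRNA host median of 0.98 was 1.26 with a mean of at least 1, 0.88 within KO and 1.09 within WT, and 0.88 to 1.09 leaving out libraries. The fatty acid median of -1.04 was -0.90 after quantile normalization, -0.96 within KO, and -1.08 to -0.96 leaving out libraries. The SRF and actin median of -0.71 was -0.54 after quantile normalization. Gbp4 lost its call for number 2 minus number 1 with log2(CPM + 1), with the length and GC correction, with voom and without WT 1. The cause of these changes was not tested. With 2 libraries numbered 4, 1 per genotype, a shift of the number and a shift of single cultures cannot be told apart.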
